A study of Homo sapiens with 4 samples.

Results

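The genes described here were higher in the library from A549 cells transfected with CEBPB siRNA-1 and stayed near control in the library from cells transfected with CEBPB siRNA-2. They were chosen by measured values in all 4 libraries of the study, so the differences that define them are given as a description, without a test. A member has an authors' mean normalized count of at least 100. Its log2(FPKM + 1) value with siRNA-1 lies at least 1 above the mean of both controls, and its value with siRNA-2 lies within 0.25 of that mean (FPKM is a fragment count scaled to transcript length and library size). Of 9122 genes with that count, among 57820 in the table, 80 met the rule, or 0.877%.

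A549 is an established human lung adenocarcinoma line, which the series calls NRF2-activated. All groups were grown in the same serum-containing medium, with fresh medium 24 h after transfection and harvest 24 h after that. Total RNA was measured in 2 control siRNA libraries, 1 library with siRNA-1 and 1 library with siRNA-2, each siRNA being directed at CEBPB. With 1 library per siRNA, an effect of siRNA-1 and a property of that culture or library cannot be told apart, and whether the controls came from separate cultures is not given in the sources used here.

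CEBPB encodes a basic leucine zipper transcription factor that binds DNA as a dimer and acts in inflammatory, metabolic and differentiation programmes. A small interfering RNA loads into the RNA-induced silencing complex and directs cleavage of the transcript it matches. An siRNA can also lower other transcripts that pair with its seed region, which is why studies use several siRNAs against 1 gene.

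The target was lower in both knockdown libraries. CEBPB was at 78.7 and 80.9 FPKM for the controls, 12.9 under siRNA-1 and 10.97 under siRNA-2. The 4 libraries summed to 494066 to 528606 FPKM and listed 13752 to 14325 genes at 1 FPKM or more. Mitochondrially encoded genes took 14.4% to 18.2% of FPKM. Of 8 epithelial markers 7 averaged at least 1 FPKM for the controls, and their summed level was 4274 and 5839 FPKM for the controls, 3028.5 under siRNA-1 and 4007 under siRNA-2. A large part of that sum and of its fall under siRNA-1 was KRT18 alone. It was at 1740 and 2502 FPKM for the controls, 568 under siRNA-1 and 1351 under siRNA-2. Of the other cell types, the leukocyte markers PTPRC, CD3E and LYZ and all 3 endothelial markers in the table were listed at 0 in every library. The leukocyte marker CD68 was at 7.09 and 9.72 FPKM for the controls, 16.8 under siRNA-1 and 4.69 under siRNA-2. The summed fibroblast markers, 5 of 6 under 1 FPKM throughout, were at 0.781, 0.665, 4.48 and 2.34 FPKM in control 1, control 2, siRNA-1 and siRNA-2. The part of these shifts in the members' values was not tested, and in bulk RNA fewer cells of a type and less RNA per cell cannot be told apart.

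The proximal promoters of 5 members are shown because they hold a TATA box at the usual distance from the start site. Sequences are from RefSeq, build GRCh38.p14, from 100 bases before to 30 bases after the start, 5′ to 3′ on the gene's strand, with the TATAAA match in capitals.

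ANGPTL4 (chr19:8364055-8364184, plus strand): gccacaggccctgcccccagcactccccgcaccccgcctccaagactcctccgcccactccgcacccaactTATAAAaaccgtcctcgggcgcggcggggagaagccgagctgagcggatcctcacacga
PIEZO1 (chr16:88785191-88785320, minus strand): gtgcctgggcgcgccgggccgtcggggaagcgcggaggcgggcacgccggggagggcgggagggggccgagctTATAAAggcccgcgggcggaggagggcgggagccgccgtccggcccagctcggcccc
PPP1R15A (chr19:48872321-48872450, plus strand): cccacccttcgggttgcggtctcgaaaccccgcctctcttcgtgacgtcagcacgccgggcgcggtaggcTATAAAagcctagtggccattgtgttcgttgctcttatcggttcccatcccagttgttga
RPL22L1 (chr3:170870166-170870295, minus strand): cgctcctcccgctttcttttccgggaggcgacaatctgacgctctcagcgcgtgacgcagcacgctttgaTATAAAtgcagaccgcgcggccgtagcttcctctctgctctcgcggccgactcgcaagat
TUBB2A (chr6:3157515-3157644, minus strand): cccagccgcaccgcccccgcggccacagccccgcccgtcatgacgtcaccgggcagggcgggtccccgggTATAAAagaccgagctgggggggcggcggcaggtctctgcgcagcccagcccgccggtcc

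The match began 27 bases before the start in PIEZO1, 29 in ANGPTL4 and 30 in the other 3. RefSeq promoters of 250 bases before to 50 after the start were matched for 61 of the 80 members. A sense-strand TATAAA starting 35 to 20 bases before the start site was present in 5 of these, or 8.2%, against 1.39% of 7501 promoters of the measured genes and 2.45% of all 27305. Among genes at least 1 above control with both siRNAs it was present in 4 of 96, or 4.17%, and the difference from the members was not tested. This window was chosen after the promoters were seen. Anywhere in the 300-base promoter and on either strand, TATAAA was present in 10 members, or 16.4%, against 4.93% of measured genes, 8.33% of genes high with both siRNAs and 12% of all promoters.

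Other motifs were searched on both strands of the same window, and a match is a run of letters, not a shown binding site. The C/EBP pattern TTGCNNCAA was present in 1 of 61 member promoters, that of TMEM194A, against 1.28% of measured genes and 2.02% of all promoters. The ETS pattern CCGGAAG was present in 4 members, or 6.56%, against 21.4% of measured genes, 2.08% of genes high with both siRNAs and 10.7% of all promoters. The CCAAT box occurred in 27.9% of members and 36.9% of measured genes, and the GC box GGGCGG in 77% and 72.7%. The NRF2 core TGACNNNGC occurred in 13.1% against 15.5%, AP-1 (TGANTCA) in 6.56% against 4.05%, and the cyclic AMP response element TGACGTCA in 4.92% against 3.6%. These 3 patterns share letters and may overlap. For the TEAD pattern GGAATG the shares were 6.56% and 10.4%, and for the E-box CACGTG 9.84% and 10.9%. Base composition of the member promoters was near that of the measured genes, with a median GC content of 67.3% against 66%.

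No gap separated the members from the other genes high with siRNA-1. Of the 9122 genes, 482 (5.28%) were at least 1 above the control mean with siRNA-1, a share that includes all 80 members by construction. By their siRNA-2 value, 121 of these 482 were at least 1 above control, 168 between 0.5 and 1, 93 between 0.25 and 0.5, 80 within 0.25 and 20 below -0.25. The mirror rule, high with siRNA-2 and within 0.25 of control with siRNA-1, was met by 12 genes. Over all 9122 genes, 4.48% were at least 1 below control with siRNA-1 and 1.84% at least 1 above with siRNA-2, and the list counts below are to be read beside these shares and the 5.28%. Both siRNA differences use the same controls.

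**Figure D1:**
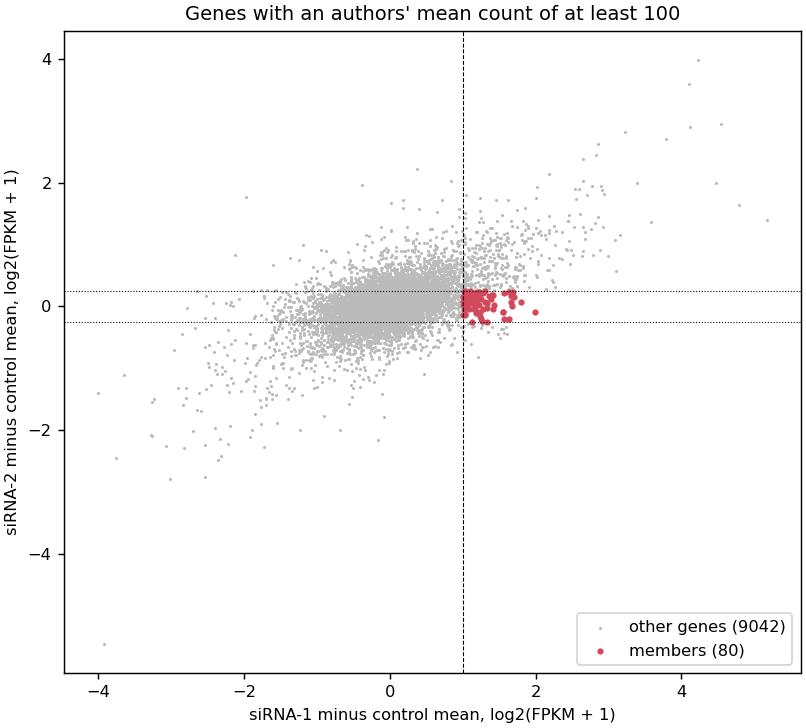
Difference of siRNA-1 from the control mean (x axis) against that of siRNA-2 (y axis), both on the log2(FPKM + 1) scale, for 9122 genes. Each point is a gene; the dashed line is the siRNA-1 limit of 1, the dotted lines are the siRNA-2 limits of 0.25 either side of 0, and the 80 members, in red, have no gap around them.

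Over the 80 members the siRNA-1 difference ran from 1.0 to 1.99 with a median of 1.20, and the siRNA-2 difference from -0.25 to 0.25 with a median of 0.07. In plain FPKM, siRNA-1 was 2.01 to 4.14 times the control mean (median 2.51) and siRNA-2 0.797 to 1.265 times (median 1.05). The siRNA-2 library lay above both controls in 40 of 80 members, between them in 28 and below both in 12, where over all measured genes 42% were above both and 34.3% below both. The rule bounds these distances, so nothing is read from the counts. In 63 of 80 members siRNA-1 was at least 2 times the highest of the other 3 libraries, a count that the rule also largely sets. Control means ran from 1.2 to 501 FPKM with a median of 7.88, against 15.8 over all measured genes, and 48 members were under 10 FPKM. Together the members took 0.392% and 0.355% of FPKM for the controls, 0.968% under siRNA-1 and 0.385% under siRNA-2.

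The spread between the controls limits how firmly a single member can be read, and with 1 library the spread under siRNA-1 was not measured. The controls differed by at least 0.5 on the log2 scale in 8 of 80 members, where 4.69% of all measured genes did. Control 2 was below control 1 in 60 of 80 members, where 60.1% of all measured genes showed that order. The median difference of control 2 from control 1 was -0.20 over members and -0.05 over all measured genes. The siRNA-1 difference was at least 3 times the difference between the controls in 70 members and under 2 times it in 3. The rule already asks for a siRNA-1 difference of at least 1, so these counts are tied to it and nothing is read from them. Set against each control alone, 37 members met the whole rule both times.

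**Figure D2:**
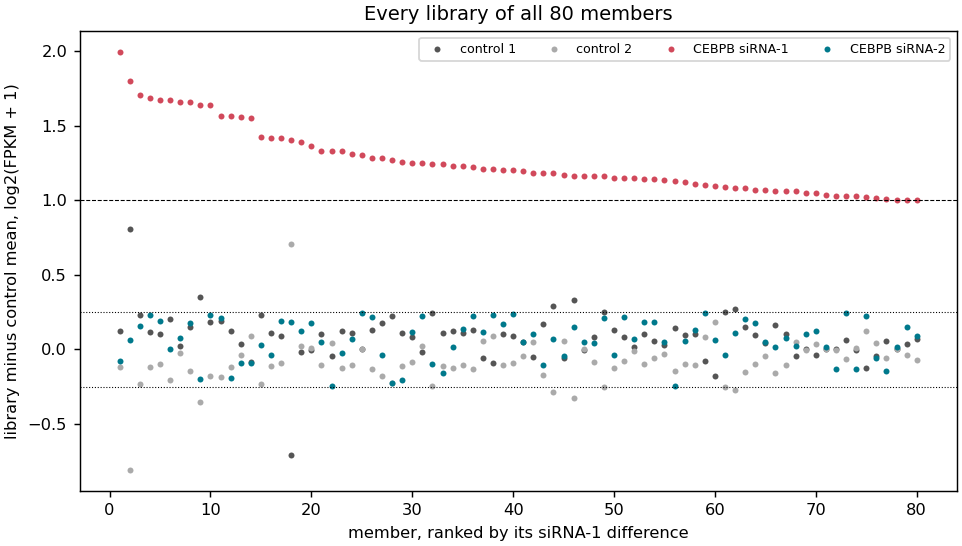
Each library minus the mean of both controls, on the log2(FPKM + 1) scale (y axis), for the 80 members ranked by their siRNA-1 difference (x axis), 1 point per library. The siRNA-1 points run from 1.99 down to 1.0, and the siRNA-2 points lie within 0.25 of 0, both by the rule; the wide control pairs at ranks 2 and 18 are HAS3 and ATXN3.

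A limma fit with 3 groups gave each siRNA-1 difference a standard error, with the controls giving 1 residual degree of freedom and the assumption that each siRNA library varies as they do. Its median was 0.19 over members, and the errors given below come from it. In that fit 73 of 80 members had an adjusted p below 0.05, beside 6.24% of 14068 genes called higher. The contrast is the one the rule used, so nothing is read from the count, and with no filter on low values limma called no member (65 at an unadjusted p below 0.05). The 7 members that did not pass were HAS3, ATXN3, HELZ2, UTRN, GPRC5C, RAB11FIP1 and TRIM21.

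Among the 7 members that encode secreted or matrix-forming proteins the median siRNA-1 difference was 1.64. NTN4 encodes netrin-4, a laminin-related basement membrane protein, and had the largest difference of all members. It was at 18.9 and 15.8 FPKM for the controls, 71.8 under siRNA-1 and 16.3 under siRNA-2, a siRNA-1 difference of 1.99 ± 0.17 (SE; n = 2 controls and 1 siRNA-1 library). The siRNA-2 value fell between the controls. ANGPTL4 encodes a secreted inhibitor of lipoprotein lipase that responds to fatty acids and hypoxia. It was at 7.97 and 7.68 FPKM for the controls, 26.8 under siRNA-1 and 8.31 under siRNA-2 (1.66 ± 0.17). IL18BP, the secreted decoy that binds interleukin-18, was at 2.68 and 1.86 FPKM for the controls, 9.08 under siRNA-1 and 2.81 under siRNA-2 (1.64 ± 0.25).

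HAS3, a plasma membrane enzyme that makes hyaluronan, had controls far apart. It was at 52.8 and 16.5 FPKM for the controls, 106 under siRNA-1 and 31.1 under siRNA-2, and its siRNA-1 difference of 1.80 ± 0.64 became 0.99 without control 2 and 2.61 without control 1. The siRNA-1 library was the highest of the 4, but its distance from control 1 was smaller than that between the controls, where control 2 minus control 1 was -1.62. PDGFA, a ligand of the platelet-derived growth factor receptors, was at 6.04 and 5.1 FPKM for the controls, 15.5 under siRNA-1 and 5.78 under siRNA-2. TIMP2, an inhibitor of matrix metalloproteinases, was at 15.6 and 14.1 FPKM, 31.4 under siRNA-1 and 17.7 under siRNA-2. C1QTNF6, a secreted C1q and TNF-related protein, completed the group at 4.61, 4.78, 12.5 and 5.66 FPKM in the same order.

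**Figure D3:**
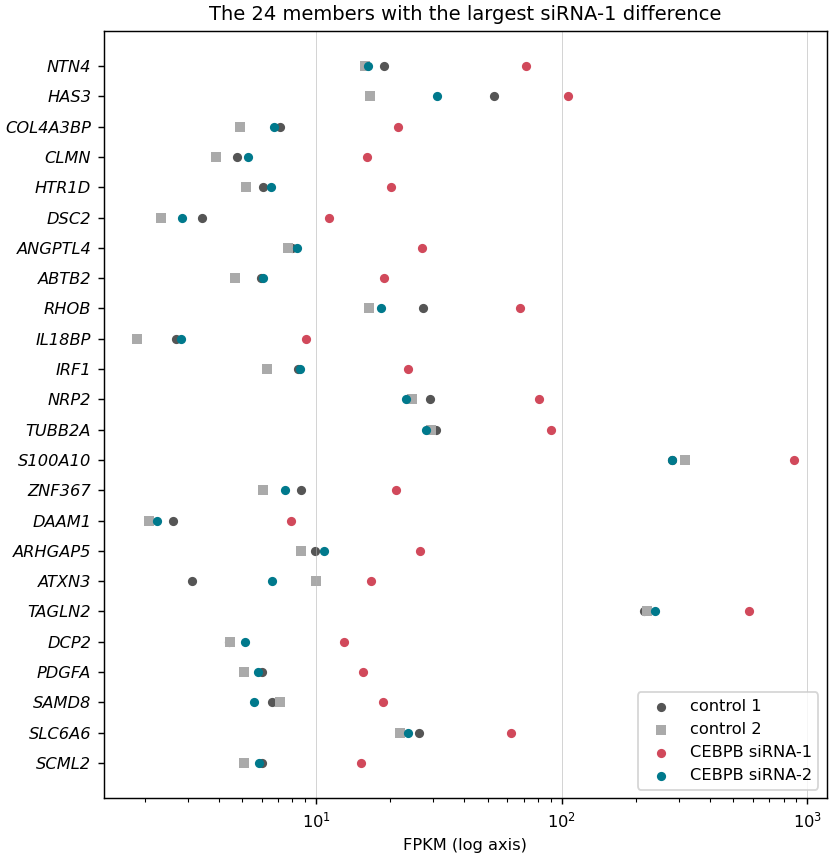
FPKM (x axis, log scale) in each of the 4 libraries for the 24 members with the largest siRNA-1 difference, 1 point per library. The siRNA-1 point is rightmost in every row, and on the log axis the controls lie furthest apart in HAS3 (16.5 and 52.8 FPKM), ATXN3 (3.11 and 9.99 FPKM) and RHOB (16.3 and 27.2 FPKM).

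Cell surface receptors made up 8 members, with siRNA-1 differences of 1.06 to 1.67. NRP2 encodes neuropilin-2, a co-receptor for class 3 semaphorins and vascular endothelial growth factors. It was at 29.2 and 24.5 FPKM for the controls, 81.1 under siRNA-1 and 23.3 under siRNA-2, a siRNA-1 difference of 1.56 ± 0.16. Its relative NRP1 was at 60.6 and 65.1 FPKM for the controls, 55.0 under siRNA-1 and 62.4 under siRNA-2, so the pair differed in this library. MET, the hepatocyte growth factor receptor, was at 49.6 and 44.3 FPKM for the controls, 105 under siRNA-1 and 54.7 under siRNA-2 (1.15 ± 0.14). The difference of MET between siRNA-1 and the nearest other library was far larger than that between the controls. The rule largely sets the first of these differences, so nothing is read from the comparison. HTR1D, a serotonin receptor coupled to inhibitory G proteins, was at 6.08 and 5.15 FPKM for the controls, 20.1 under siRNA-1 and 6.52 under siRNA-2 (1.67 ± 0.20).

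A receptor chain for type I interferon and one for interferon gamma were among them. IFNAR2 encodes a chain of the type I interferon receptor. It was at 13.9 and 12.3 FPKM for the controls, 30.4 under siRNA-1 and 13.5 under siRNA-2, a siRNA-1 difference of 1.16 ± 0.17. IFNGR2, a chain of the interferon gamma receptor, was at 20.96 and 19.7 FPKM for the controls, 43.7 under siRNA-1 and 21.1 under siRNA-2 (1.07 ± 0.14). For both, siRNA-2 lay close to the controls and siRNA-1 apart from all 3, which the rule largely sets. Their partner chains did not meet the rule. IFNAR1 was at 7.63 and 10.99 FPKM for the controls, 13.8 under siRNA-1 and 7.09 under siRNA-2. IFNGR1 was at 24.5 and 23.4 FPKM for the controls and lower in both knockdown libraries, 13.3 under siRNA-1 and 16.3 under siRNA-2.

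IFNAR2 and IFNGR2 lie in 1 cluster on chromosome 21 with IL10RB and IFNAR1 between them in the RefSeq order. IL10RB was at 11.9 and 8.49 FPKM for the controls, 16.8 under siRNA-1 and 10.9 under siRNA-2, a siRNA-1 difference of 0.68 ± 0.24. A readthrough gene joins IFNAR2 and IL10RB, so reads of these loci may be shared. TNFRSF10D, a decoy receptor for the death ligand TRAIL, was at 6.16, 5.19, 12.9 and 6.03 FPKM in control 1, control 2, siRNA-1 and siRNA-2. The BMP type I receptor ACVR1 was at 5, 4.21, 11.9 and 5.3 FPKM, and the orphan receptor GPRC5C at 6.75, 4.47, 13.5 and 6.53. Of 21 measured cytokine and growth factor receptors, 7 were at least 1 above control with siRNA-1 and none with siRNA-2, 3 of the 7 being members. At the shares over all genes, 5.28% and 1.84%, a count of 0 with siRNA-2 in a list of this size is near background. The list's median was 0.64 under siRNA-1 and -0.04 with siRNA-2, beside -0.04 and 0.03 over all measured genes.

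Within the cell, 5 members act in innate immune or interferon signalling. IRF1, an interferon-induced transcription factor, was at 8.45 and 6.29 FPKM for the controls, 23.6 under siRNA-1 and 8.61 under siRNA-2, a siRNA-1 difference of 1.56 ± 0.22. TNIP1 encodes a ubiquitin-binding inhibitor of NF-kappaB signalling. It was at 86.0 and 79.2 FPKM for the controls, 183 under siRNA-1 and 94.0 under siRNA-2 (1.14 ± 0.13). MYD88, the adaptor of Toll-like and interleukin-1 receptors, was at 8.38 and 8.95 FPKM for the controls, 18.5 under siRNA-1 and 8.27 under siRNA-2 (1.01 ± 0.17). In these genes siRNA-1 was the highest library and siRNA-2 lay near the control mean, both of which the rule largely sets.

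TRIM21, a cytosolic antibody receptor and ubiquitin ligase, was at 10.8 and 7.09 FPKM for the controls, 19.6 under siRNA-1 and 9.55 under siRNA-2. HELZ2, a helicase that acts as a nuclear receptor coactivator, was at 2.77 and 1.53 FPKM, 6.01 under siRNA-1 and 2.24 under siRNA-2. Neither passed in limma. Among 18 measured interferon-stimulated genes, 4 were at least 1 above control under siRNA-1 (DTX3L, PARP14, IRF1 and PARP9) and 2 at least 1 below. None was 1 above under siRNA-2. The shares of all measured genes were 5.28%, 4.48% and 1.84% in that order. Median differences over this list were 0.53 for siRNA-1 and 0.27 for siRNA-2, beside -0.04 and 0.03 over all measured genes. Of 11 antigen presentation genes, none a member, 7 were higher by at least 1 under siRNA-1 and 6 under siRNA-2. For 21 NF-kappaB subunits and feedback genes, TNIP1 among them, these counts were 5 and 2, with medians of 0.53 and 0.35.

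Actin, small GTPase and S100 genes made up the largest group, 16 members with siRNA-1 differences of 1.0 to 1.69. S100A10 encodes the light chain p11 that binds annexin A2 at the membrane. It was at 282 and 319 FPKM for the controls, 880 under siRNA-1 and 282 under siRNA-2, a siRNA-1 difference of 1.55 ± 0.14. Its binding partner ANXA2 was at 818 and 947 FPKM for the controls, 1924 under siRNA-1 and 1447 under siRNA-2, higher in both knockdown libraries and so outside the rule. S100A6, calcyclin, was the most abundant member, at 520 and 481 FPKM for the controls, 1007 under siRNA-1 and 452 under siRNA-2 (1.01 ± 0.14). S100A6 stands near the limit of 1. Of 17 measured metallothionein, S100 and annexin genes, 7 were at least 1 above control under siRNA-1 and 3 under siRNA-2.

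TAGLN2, transgelin-2, an actin-binding protein, was at 216 and 222 FPKM for the controls, 576 under siRNA-1 and 239 under siRNA-2 (1.39 ± 0.12). RHOB, an endosomal small GTPase induced by growth factors and stress, was at 27.2 and 16.3 FPKM for the controls, 67.7 under siRNA-1 and 18.3 under siRNA-2 (1.64 ± 0.31). Its relatives did not show the pattern. RHOA was at 152 and 165 FPKM for the controls, 113 under siRNA-1 and 144 under siRNA-2. RHOC was at 98.1 and 109 FPKM for the controls, 118 under siRNA-1 and 133 under siRNA-2.

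Regulators of small GTPases were ARHGAP5 and ARHGAP17, GTPase-activating proteins, STARD13, another such protein that acts on RhoA, AKAP13, a guanine nucleotide exchange factor and kinase anchor, and CDC42EP2, a Cdc42 effector. ARHGAP5 was at 9.91 and 8.64 FPKM for the controls, 26.3 under siRNA-1 and 10.7 under siRNA-2 (1.41 ± 0.18). CDC42EP2 was at 8.44, 7.43, 20.2 and 8.67 FPKM in control 1, control 2, siRNA-1 and siRNA-2. STARD13 was at 1.98 in both controls, 4.97 under siRNA-1 and 2.02 under siRNA-2.

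Proteins that build or move actin filaments were members too. DAAM1, a formin of the planar polarity pathway, was at 2.6, 2.09, 7.91 and 2.25 FPKM in control 1, control 2, siRNA-1 and siRNA-2. MYLK, myosin light chain kinase, was at 12.3 in both controls, 26.3 under siRNA-1 and 12.4 under siRNA-2 (1.04 ± 0.16). CLMN, a membrane protein with a calponin-type actin-binding domain, had the largest difference of the group, from 4.77 and 3.9 FPKM for the controls to 16.1 with siRNA-1, with 5.25 for siRNA-2. SWAP70 was at 10.5, 11.1, 23.3 and 11.8 FPKM in the same order. The actin nucleator COBL, the focal adhesion protein PARVA and the dystrophin relative UTRN had siRNA-1 differences of 1.21, 1.02 and 1.16.

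Another 5 members belong to adhesion or cell junctions. DSC2, the desmosomal cadherin desmocollin-2, was at 3.43 and 2.34 FPKM for the controls, 11.3 under siRNA-1 and 2.85 under siRNA-2 (1.67 ± 0.26). PPL, periplakin, which links desmosomes to keratin filaments, was at 1.36, 1.03, 4.18 and 0.961 FPKM in control 1, control 2, siRNA-1 and siRNA-2. CGN, cingulin of tight junctions, was at 3.53, 3.5, 8.23 and 3.13 FPKM. In PPL and CGN the siRNA-2 library was the lowest of the 4. ITGA6, the laminin-binding integrin alpha 6 chain, was at 26.3 and 20.6 FPKM for the controls, 54.2 under siRNA-1 and 21.6 under siRNA-2 (1.18 ± 0.19). Its partner chains ITGB4 and ITGB1 had siRNA-1 differences of 0.22 and 0.29 and did not meet the rule. Of 16 measured integrins and laminins 7 were at least 1 above control under siRNA-1 and 1 under siRNA-2. EPB41L4B, a cytoskeletal adaptor, was at 4.01, 3.2, 9.2 and 3.46 FPKM.

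**Figure D4:**
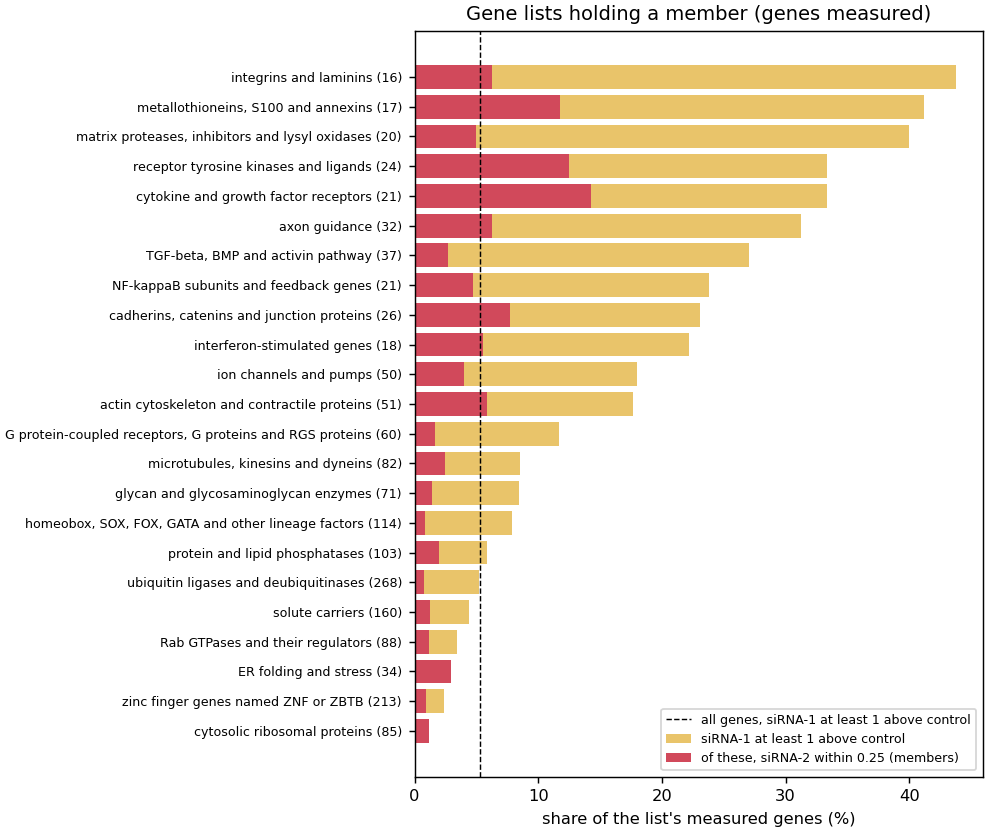
Share of each list's measured genes (x axis, percent) at least 1 above the control mean with siRNA-1 (yellow bar), and the part of it that are members (red bar), for 23 of the 24 lists that hold a member, with the number of measured genes in brackets. The dashed line is the 5.28% of all 9122 genes; the longest bar is that of integrins and laminins, 7 of 16 genes.

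Another 6 members act on microtubules, septins or the centrosome. TUBB2A, a beta-tubulin, was at 30.8 and 29.2 FPKM for the controls, 90.1 under siRNA-1 and 28.1 under siRNA-2 (1.56 ± 0.13). TUBB2A has a near-identical copy, TUBB2B, so its reads may be shared. EML1, a microtubule-binding protein, was at 9.77, 8.29, 22.4 and 10.0 FPKM in control 1, control 2, siRNA-1 and siRNA-2, and CLIP4 at 12.3, 10.1, 27.4 and 13.2. KATNAL1, a katanin-type severing protein, the septin SEPT8 and the ciliogenesis inhibitor CEP97 had siRNA-1 differences of 1.27, 1.08 and 1.15. Of 82 measured microtubule and motor genes, 7 (8.54%) were at least 1 above control with siRNA-1.

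Channels and transporters made up 4 members. PIEZO1, a mechanically gated cation channel, was at 29 and 24.1 FPKM for the controls, 65.8 under siRNA-1 and 30.9 under siRNA-2 (1.28 ± 0.17). ANO6, a calcium-activated channel and lipid scramblase, was at 23.0 and 23.1 FPKM for the controls, 52.8 under siRNA-1 and 23.9 under siRNA-2 (1.16 ± 0.14). SLC6A6, the taurine transporter, was at 26.3, 22.0, 61.9 and 23.6 FPKM in control 1, control 2, siRNA-1 and siRNA-2. The carnitine transporter SLC22A5 was at 6.11, 6.94, 15.2 and 7.89 FPKM. Solute carriers as a list were not high, with 7 of 160 (4.38%) at least 1 above control with siRNA-1 and 10 at least 1 below.

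SLC22A5 and IRF1 are next to each other on chromosome 5 in the RefSeq order of protein-coding genes, and so are ZDHHC18 and SFN on chromosome 1. Of 150 measured genes that flank members and are not members themselves, 12 (8%) were at least 1 above control with siRNA-1 and 8 at least 1 below, beside 5.28% and 4.48% of all measured genes. Their median siRNA-1 difference was 0.09, against -0.04 over all measured genes. The members were otherwise spread over 23 chromosomes, with 9 on chromosome 1 and 7 each on chromosomes 5 and 11.

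Another 7 members handle lipids or membrane traffic. COL4A3BP encodes CERT, which carries ceramide from the endoplasmic reticulum to the Golgi. It was at 7.09 and 4.87 FPKM for the controls, 21.5 under siRNA-1 and 6.7 under siRNA-2 (1.71 ± 0.25). SAMD8, a ceramide phosphoethanolamine synthase, was at 6.59, 7.09, 18.7 and 5.6 FPKM in control 1, control 2, siRNA-1 and siRNA-2. MTMR9, a catalytically inactive myotubularin, was at 2.34 in both controls, 7.25 under siRNA-1 and 2.96 under siRNA-2. RAB11FIP1, a Rab11 effector of recycling endosomes, and RASEF, an atypical Rab GTPase, had siRNA-1 differences of 1.09 and 1.11. LEPROT, which limits leptin receptor at the surface and shares its locus with the receptor gene, was at 14.2, 11.8, 31.7 and 13.1 FPKM. The palmitoyltransferase ZDHHC18 was at 7.07, 6.05, 14.8 and 7.52 FPKM.

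A set of 6 members acts in transcription, chromatin or RNA. RUNX1, a Runt-domain transcription factor, was at 3.66 and 3.05 FPKM for the controls, 8.6 under siRNA-1 and 3.94 under siRNA-2 (1.14 ± 0.22). DCP2, the catalytic subunit of mRNA decapping, was at 4.41 and 4.46 FPKM, 13 under siRNA-1 and 5.13 under siRNA-2 (1.36 ± 0.19). The Polycomb-group protein gene SCML2 was at 6.03, 5.06, 15.2 and 5.83 FPKM in control 1, control 2, siRNA-1 and siRNA-2. The zinc finger genes ZNF367 and ZNF200 had siRNA-1 differences of 1.43 and 1.13, where 5 of 213 measured zinc finger genes (2.35%) were at least 1 above control. RPL22L1, a paralog of the ribosomal protein RPL22, was at 16.2, 17.7, 39.3 and 16.4 FPKM, and was the one of 85 ribosomal protein genes at least 1 above control with siRNA-1.

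A set of 7 members serves stress responses, protein quality or glycosylation. PPP1R15A encodes GADD34, which directs dephosphorylation of the translation factor eIF2 alpha after stress. It was at 21.3 and 17.3 FPKM for the controls, 43.0 under siRNA-1 and 16.0 under siRNA-2 (1.13 ± 0.18). It was the one of 34 measured endoplasmic reticulum folding and stress genes at least 1 above control with siRNA-1, while 3 were at least 1 below. SFN, the epithelial 14-3-3 sigma protein, was at 63.6 and 55.3 FPKM, 130 under siRNA-1 and 61.5 under siRNA-2 (1.12 ± 0.15). GFPT1, the first and rate-limiting enzyme of the hexosamine pathway, was at 10.9 and 11 FPKM, 23.4 under siRNA-1 and 9.92 under siRNA-2.

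ATXN3, a deubiquitinase, had controls far apart, as HAS3 did. It was at 3.11 and 9.99 FPKM for the controls, 16.8 under siRNA-1 and 6.62 under siRNA-2. Its siRNA-1 difference of 1.40 ± 0.58 became 0.69 without control 1 and 2.11 without control 2. SGTB, a co-chaperone, KLHL15, a substrate adaptor of a cullin ubiquitin ligase, and DPY19L3, a C-mannosyltransferase, had siRNA-1 differences of 1.06, 1.05 and 1.20.

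The remaining 9 members had siRNA-1 differences of 1.0 to 1.66. ABTB2, an ankyrin and BTB domain protein gene, was at 5.96 and 4.67 FPKM for the controls, 18.8 under siRNA-1 and 6.09 under siRNA-2. PHLDA2, an imprinted gene that restrains placental growth, was at 21.1, 17.98, 48.0 and 16.8 FPKM in control 1, control 2, siRNA-1 and siRNA-2. C20orf194, TMEM56, TMEM33, TMEM245, TMCO3 and TMEM194A were between 4.99 and 41.9 FPKM with siRNA-1, and DDX3YP1 is a processed pseudogene whose reads may come from its parent genes. Transcript models of the members were longer than those of all measured genes, with a median of 5122 against 3961 bases in GENCODE 29, and had a GC content of 47.5% against 47.6%. Over genes at least 1 above control with both siRNAs these medians were 4452 bases and 50.5%.

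The limits of the rule cut through closely similar genes. Just inside the siRNA-1 limit were TMEM245, TMEM33, STARD13 and S100A6, at 1.0 to 1.01. Just outside were TMEM14C, TMEM51 and TRIP12, at 0.98 to 0.99. By the siRNA-2 limit, SAMD8 and PPP1R15A (both -0.25), MTMR9 (0.25) and SLC22A5 (0.24) were inside, and DDAH1, FSTL3, UHMK1 and ST6GALNAC6, all at 0.26, outside. DDAH1 had a siRNA-1 difference of 1.65 and FSTL3 of 1.43.

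The authors' deposited table compares both siRNAs together with control, and how its counts relate to the FPKM columns is not given in the sources used here. Its log2 fold change was above 0 in 78 of 80 members, with a median of 0.80, where the log2 ratio of mean siRNA FPKM to mean control FPKM had a median of 0.83. None of the 80 had an adjusted p below 0.05 in the authors' deposited table (DESeq2 column names), beside 3.28% of the 9122 genes called higher. At an unadjusted p below 0.05 there, 41 members were higher, beside 8.01% of genes. Since the rule keeps siRNA-2 near control, a comparison that pools the siRNAs is tied to it. Among the 80 members, the smallest adjusted p in the authors' deposited table was that of DCP2, 0.0509, with a log2 fold change of 1.35.

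The authors' fold change and the FPKM ratio differed for a few members. The authors' value lay within 0.25 of the FPKM ratio in 68 of 80 members (85%), against 92.4% of all measured genes. TMEM33 had a log2 fold change of -0.35 in the authors' deposited table against 0.67 from FPKM, and RPL22L1 -0.04 against 0.72. For COL4A3BP the authors' deposited table gives 0.55 where FPKM gives 1.24, for SAMD8 0.23 against 0.83, for AKAP13 0.27 against 0.80 and for ZNF200 0.39 against 0.84. For TMEM33 and RPL22L1 the values differed in sign, and for the other 4 in size. HAS3 and DCP2 went the other way, at 1.40 against 0.98 and 1.35 against 1.03.

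**Figure D5:**
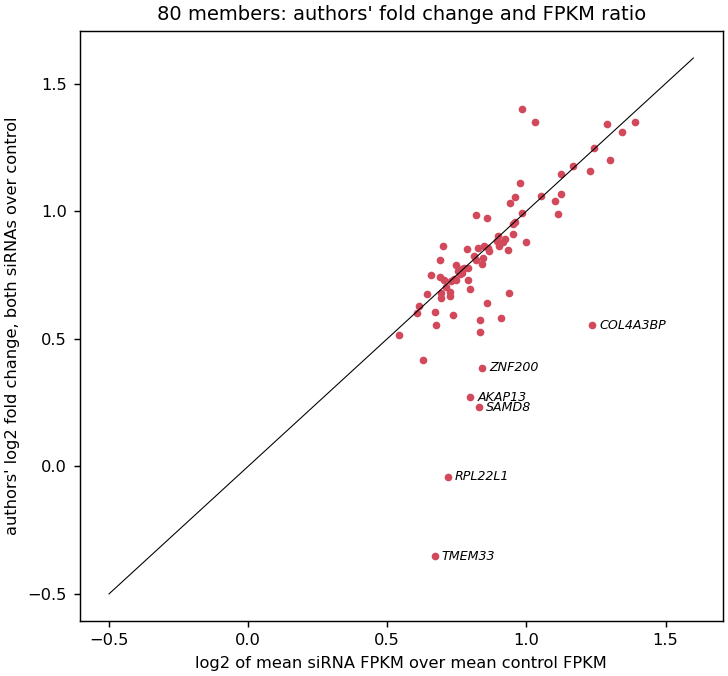
Authors' log2 fold change of both siRNAs over control (y axis) against the log2 ratio of mean siRNA FPKM to mean control FPKM (x axis) for the 80 members, 1 point per gene, with the line of equality. Most points lie on the line, and the 6 named genes lie more than 0.4 below it, with TMEM33 at -0.35 and RPL22L1 at -0.04 on the y axis.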

How the data were processed

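The deposited table holds 57820 genes with 1 value for each of 4 libraries and the authors' own comparison. The unit of the per-library values is not named in the header. They were taken as FPKM made by the authors, since the columns are not whole numbers and sum to different totals. Per the submitters' processing notes the tools are STAR 2.7.0d, StringTie 2.1.4, HTSeq 0.13.5 and DESeq2 1.26.0, with build hg19, and no role or order. Per the file headers, the other columns are a DESeq2 table: the signal column is the authors' mean normalized count, the log2 columns the authors' log2 fold change and its standard error, the score is a Wald statistic from the authors, and the last pair of columns holds their p-value before and after adjustment, as deposited. Depth is seen only through the authors' mean counts, which sum to 8341083.

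The members and the gene lists were chosen with earlier results of these data known. The roles that group the members were assigned after the members were seen. All differences use log2(FPKM + 1), so the change of weakly expressed genes is understated. The design allowed a count model if the file held counts; it does not, so limma was used. The limma package (3.58.1, R 4.3.3) was fitted with an intensity trend and 3 groups over 14068 genes averaging at least 1 FPKM, with Benjamini-Hochberg adjustment, and was checked on simulated data. It had 1 residual degree of freedom and 3.92 from the prior. Named were CEBPB, the 24 members with the largest difference, up to 5 per list, the 6 with the highest control mean, and 4 either side of each limit; other names were chosen after their values were seen. Gene type and transcript length came from GENCODE 29, matched by Ensembl identifier for all 80 members. Alternatives covered scaling, pseudocount, count minimum, siRNA-2 window and leaving out each control. A few genes and 1 gene list that these rules select are not reported here.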

Additional observations from a re-analysis of the deposited data

Results flagged for a closer look

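In 12 members the siRNA-1 library lay above both controls and the siRNA-2 library below both. In 40 others siRNA-2 also lay above both controls, and in 28 it lay between them. Over all measured genes, siRNA-2 lay below both controls in 34.3% and above both in 42%. With 1 library per siRNA the opposite order in the 12 members was not tested. The rule itself keeps siRNA-2 within 0.25 of the control mean and siRNA-1 at least 1 above it. The siRNA-2 differences on the log2(FPKM + 1) scale were -0.25 for SAMD8, a sphingolipid enzyme, -0.25 for PPP1R15A (GADD34), -0.23 for the katanin-type KATNAL1 and -0.20 for PHLDA2. For NRP2 (neuropilin-2) the value was -0.19, for periplakin (PPL) -0.16, for S100A6 -0.15, for cingulin (CGN) -0.13 and for GFPT1 -0.13. TUBB2A was at -0.092, S100A10 at -0.0891 and MYD88 at -0.0591.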

How the results depend on the processing

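No paired analysis was made, and each siRNA has 1 library. The library titles number the controls 1 and 2 and the knockdowns 1 and 2. Whether equal numbers mark a pair is not given in the sources used here. The rule gave 79 members without control 2 and 95 without control 1, of which 54 and 53 were among the 80. It gave 93 with a pseudocount of 0.1 (69 of the 80 kept), 99 with median-of-ratios scaling (74 kept), 87 with upper-quartile scaling (78 kept), 105 with TPM scaling (63 kept), 102 and 69 with mean count minimums of 50 and 200, 133 with no count minimum (all 80 included) and 189 with a siRNA-2 window of 0.5, where the median siRNA-2 difference was 0.24. The authors' adjusted p is as deposited and was not recomputed. Genes that met an altered rule and passed the authors' threshold numbered 1 to 2 when leaving out 1 control. There was 1 with a minimum of 50 or none, and there were 14 with the wider window. None of these genes is among the 80. In limma 0 members passed with no filter on low values, where the cause was not tested, and 67 to 76 under the other settings. Over 480 values of single members under 6 alternatives, none changed sign and the lowest was 0.69 (ATXN3). The members were chosen for a siRNA-1 difference of at least 1, so nothing is read from the unchanged sign. Leaving out siRNA-1 or siRNA-2 leaves the rule without a value.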
